A study of Mus musculus with 112 samples.

Results

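Epididymal white fat from male mice fed a high-fat diet was compared between 8 Ala/Ala and 10 Pro/Pro animals, across 16643 genes. These 18 arrays were taken by their titles, which name the fat depot and the diet, among the arrays of fat, gastrocnemius muscle and liver in the series. Ala/Ala mice carried the Pro12Ala variant of Pparγ2 on both chromosomes as a knock-in, and Pro/Pro mice were their wild-type littermates. All were males that entered the diet at 8 weeks of age. The series text gives 15 weeks on diet D12330, while the sample text gives 12 weeks on diet D12907B, and this difference could not be settled. Further groups used below were fat of chow-fed mice (9 Ala/Ala and 10 Pro/Pro), muscle on the high-fat diet (9 and 8) and liver on the high-fat diet (10 and 10). Each mouse gave at most 1 array per tissue, not every mouse was measured in all tissues, and the labels name no strain, litter or array batch. Heterozygous mice were not analysed here.

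PPARγ is a nuclear receptor that pairs with the retinoid X receptor on DNA and is required for fat cells to form and to store lipid. Its γ2 isoform is made mainly in fat cells and carries an extra stretch at its start, in which residue 12 lies. Human carriers of the alanine form are known for a lower risk of type 2 diabetes, and the exchanged residue lies outside the parts that bind DNA and ligand. The variant is an exchange in the protein, so the level of Pparg RNA does not show whether a mouse carries it.

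Every value below is a log2 ratio of a mouse to the virtual pool of the 10 Pro/Pro mice on the high-fat diet, so 0 is the level of that pool and -1 is a halving. Ratios give no expression level, and levels of different genes cannot be compared. A difference is Ala/Ala minus Pro/Pro on this log2 scale, with the standard error (SE) of limma's fit over all 37 fat arrays, and a gene passed at a Benjamini-Hochberg adjusted p under 0.05 over 16643 genes. Array medians lay between -0.04 and 0.02. The adipocyte markers Adipoq, Cidec, Fabp4 and Lipe stayed between -0.355 and 0.25 on all 18 arrays. Ratios within a tissue cannot show that a marker is present, so the tissue label was not tested further.

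Pparg RNA did not pass the test. In the 8 Ala/Ala mice its log2 ratio ran from -0.30 through a median of 0.06 to 0.16, and in the 10 Pro/Pro mice from -0.41 through 0.05 to 0.27. The ranges lay over each other, and the difference was 0.03 (SE 0.12, adjusted p = 0.959). A single probe set stands for the gene, which cannot separate the γ1 and γ2 isoforms.

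Of the 16643 genes 17 passed, or 0.102%. Of these 2 rose in Ala/Ala fat (0.012%) and 15 fell (0.0901%). The changes were small: Slc6a13 fell by 46.8%, Rab12 fell by 22.9%, and Apobec1 rose by 83.4%. Groups did not overlap for 4 genes, or 0.024% of all, and all 4 were lower in Ala/Ala: Slc6a13, N6amt1, Bid and Smarca4. An unadjusted p under 0.05 was reached by 1469 genes, or 8.83%. The median difference over all genes was 0.01, and the middle 90% of genes lay between -0.23 and 0.21. The count rested on single arrays. It was 3 without Pro/Pro Mouse110, Pro/Pro Mouse111 or Ala/Ala Mouse149, 4 without Ala/Ala Mouse99, and 5 without Pro/Pro Mouse95, Pro/Pro Mouse137, Ala/Ala Mouse80 or Ala/Ala Mouse152. Without Pro/Pro Mouse131 it was 6, without Pro/Pro Mouse143 it was 8 and without Ala/Ala Mouse117 it was 9, while without Pro/Pro Mouse147 it was 25. Slc6a13, N6amt1 and Bid passed in all 18 of these omissions. With the 18 arrays fitted alone 2 genes passed, N6amt1 and Bid.

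**Figure D1:**
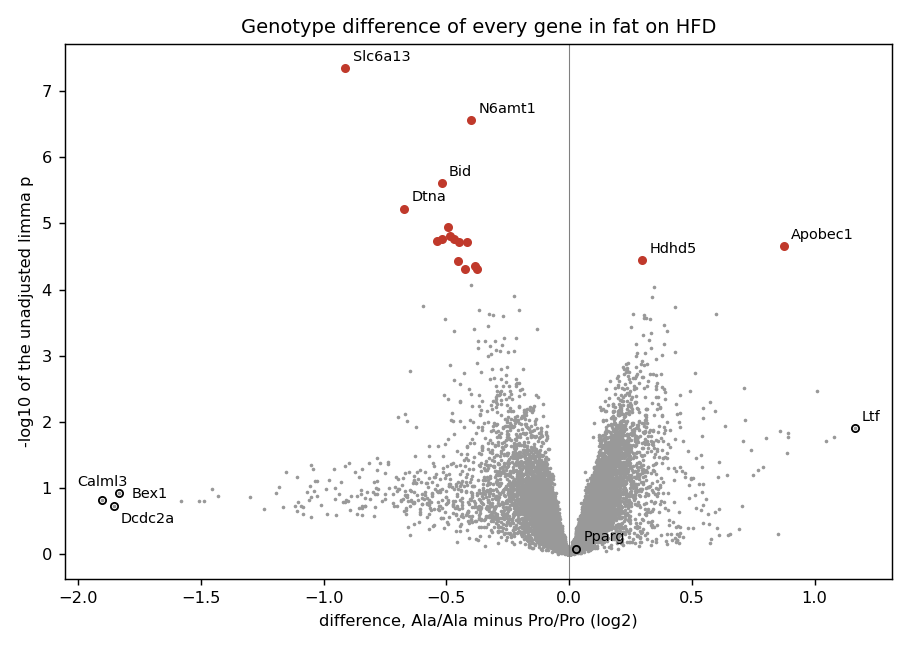
The genotype difference of each of 16643 genes in fat on the high-fat diet (horizontal axis, log2, Ala/Ala minus Pro/Pro) against minus the log10 of limma's unadjusted p (vertical axis). Red points are the 17 genes past the adjusted p of 0.05, and open circles mark Pparg, Ltf, Calml3, Dcdc2a and Bex1, which did not pass, the last 3 with differences of -1.83 to -1.90.

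Slc6a13 encodes GAT2, a carrier of GABA and taurine into cells. Its log2 ratios in Ala/Ala fat ran from -1.63 in Mouse77 through a median of -0.82 to -0.54 in Mouse80, and in Pro/Pro fat from -0.41 through -0.06 to 0.40. The lowest Pro/Pro mouse lay above the highest Ala/Ala mouse. The difference was -0.91 (SE 0.13, adjusted p = 0.00076), the largest fall among the genes that passed. It passed in 11 of 13 alternative fits, described below. The exceptions were the 18 arrays fitted alone (limma, adjusted p = 0.087) and the methods' t-test on them (adjusted p = 0.155). The 6 gene families counted here and below were picked because each holds a gene that passed. Their counts and medians include that gene, so they are no test of the family. Among 23 measured SLC6 carriers and GABA-handling genes, Slc6a13 was the single member that passed, 10 members lay above 0 and 13 below, and the median was -0.01 against 0.01 over all genes. Abat, the enzyme that breaks down GABA, differed by -0.33 (SE 0.17, adjusted p = 0.565).

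Bid encodes a protein that carries death-receptor signals to mitochondria in apoptosis. Its ratios ran from -0.75 through -0.53 to -0.25 in Ala/Ala fat and from -0.15 through -0.08 to 0.28 in Pro/Pro fat, again with no overlap. The difference was -0.52 (SE 0.09, adjusted p = 0.0138). Of 16 measured BCL2 family genes it was the single one that passed, with a family median of -0.01. Bcl2l13, a mitochondrial member, differed by -0.31 (SE 0.08, adjusted p = 0.133), but its other probe sets differed by 0.23 and 0.21, so probe sets of this gene disagreed in sign. Bcl2l1, which encodes the survival factor Bcl-xL, differed by 0.34 (SE 0.16, adjusted p = 0.539).

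Apobec1 encodes a cytidine deaminase known for editing the RNA of apolipoprotein B, and was the gene with the larger rise. Its ratios in Ala/Ala fat ran from -0.02 in Mouse128 through 0.78 to 2.11 in Mouse152, and in Pro/Pro fat from -0.43 through -0.08 to 0.40. Of the 8 Ala/Ala mice 7 lay above all 10 Pro/Pro mice, and Mouse128 lay among them. The difference was 0.88 (SE 0.18, adjusted p = 0.0308), and leaving out single mice moved it between 0.70 and 0.999. Without arrays high in the hepatocyte list described below it was 0.45 (adjusted p = 0.516). Of 9 measured genes of the APOBEC family and its editing partners no other passed, and the median was 0.00. Syncrip, an RNA-binding partner of the editing enzyme, differed by -0.22 (SE 0.09, adjusted p = 0.511), but its other probe sets lay between -0.07 and 0.04.

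Slc6a13, Bid, Apobec1 and Hdhd5, described below, lie on chromosome 6, as does Pparg, and are the 4 genes there that passed and are measured by a single probe set, so promoter windows of these 4 are shown. Windows are RefSeq sequence of GRCm38.p6, 250 bases before to 50 after a transcript start, written 5′ to 3′ along the gene, with the half-site AGGTCA, which nuclear receptors of this family bind, in capitals where it occurs on either strand.
Slc6a13, chr6:121300038-121300337, + strand: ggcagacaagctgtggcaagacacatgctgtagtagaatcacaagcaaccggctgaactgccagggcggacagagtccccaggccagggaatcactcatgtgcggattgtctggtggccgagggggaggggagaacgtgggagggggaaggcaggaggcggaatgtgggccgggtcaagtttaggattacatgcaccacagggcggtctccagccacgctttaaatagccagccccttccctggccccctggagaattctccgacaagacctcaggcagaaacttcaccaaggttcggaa
Slc6a13, chr6:121303389-121303688, + strand: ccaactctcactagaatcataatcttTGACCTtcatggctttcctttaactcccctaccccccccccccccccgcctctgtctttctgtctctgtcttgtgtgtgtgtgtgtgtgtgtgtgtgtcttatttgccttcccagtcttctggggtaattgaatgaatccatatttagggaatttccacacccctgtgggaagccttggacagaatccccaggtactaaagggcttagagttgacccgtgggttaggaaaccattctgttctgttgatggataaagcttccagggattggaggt
Bid, chr6:120916775-120917074, - strand: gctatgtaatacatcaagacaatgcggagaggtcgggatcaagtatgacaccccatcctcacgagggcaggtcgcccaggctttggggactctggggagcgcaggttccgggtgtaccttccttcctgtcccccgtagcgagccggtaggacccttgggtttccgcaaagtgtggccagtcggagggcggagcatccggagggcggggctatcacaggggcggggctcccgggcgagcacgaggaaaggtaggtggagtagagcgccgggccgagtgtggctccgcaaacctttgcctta
Hdhd5, chr6:120531250-120531549, - strand: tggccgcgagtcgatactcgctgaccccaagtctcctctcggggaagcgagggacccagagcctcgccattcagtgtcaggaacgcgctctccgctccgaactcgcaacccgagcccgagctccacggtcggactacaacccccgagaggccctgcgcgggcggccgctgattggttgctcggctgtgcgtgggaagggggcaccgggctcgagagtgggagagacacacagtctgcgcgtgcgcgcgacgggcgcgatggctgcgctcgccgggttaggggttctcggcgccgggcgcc
Apobec1, chr6:122602395-122602694, - strand: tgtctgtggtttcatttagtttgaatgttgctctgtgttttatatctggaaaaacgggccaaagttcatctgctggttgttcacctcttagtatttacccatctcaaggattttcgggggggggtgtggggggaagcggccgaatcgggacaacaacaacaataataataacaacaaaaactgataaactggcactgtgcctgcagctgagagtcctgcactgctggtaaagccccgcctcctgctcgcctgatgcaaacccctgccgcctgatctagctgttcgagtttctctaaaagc
The capitals in the downstream Slc6a13 window read TGACCT, the half-site on the opposite strand, at position 27. The windows of Hdhd5, Bid and Apobec1 and the upstream window of Slc6a13 do not hold these letters, and neither does a further Slc6a13 window (chr6:121300490-121300789) that is not printed. Among all 32851 windows 16.3% hold the half-site on either strand and 0.0396% hold 2 copies in the same direction spaced by 1 base, the arrangement PPARγ binds with its partner. Of the 17 genes 12 have a window here, and 1 of their 14 windows (7.14%) holds the half-site.

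**Figure D2:**
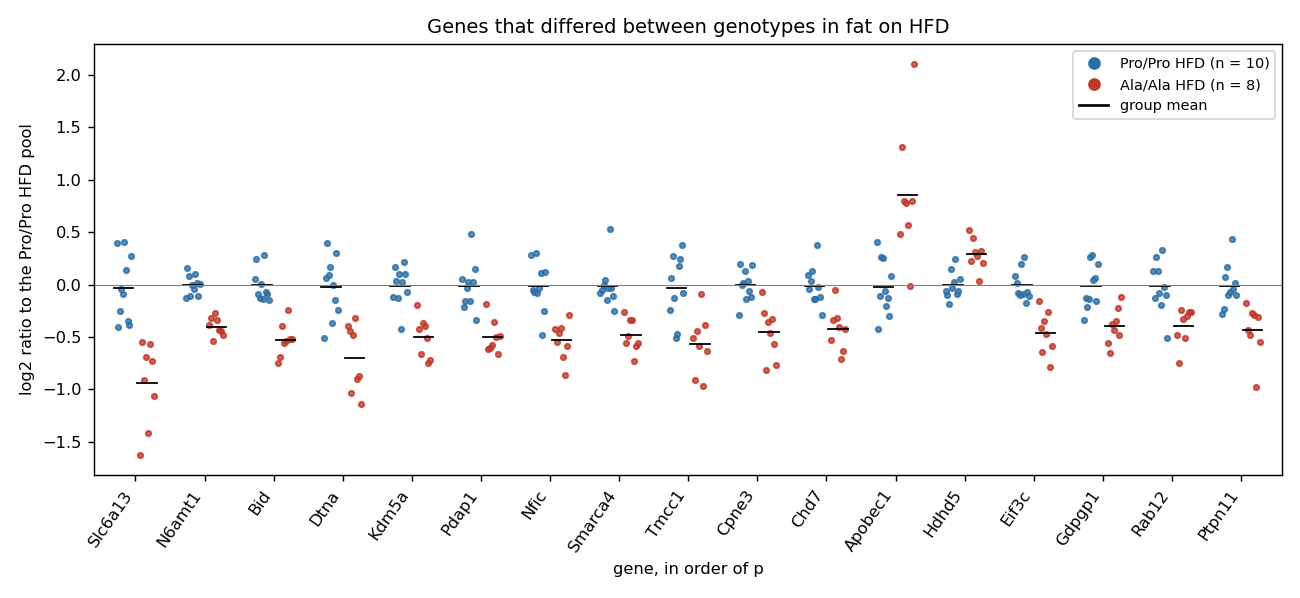
The log2 ratio to the Pro/Pro pool (vertical axis) of the 17 genes that passed, in order of p, with 1 point per mouse and a bar at each group mean. Blue points are 10 Pro/Pro and red points 8 Ala/Ala mice on the high-fat diet; the groups do not overlap for Slc6a13, N6amt1, Bid and Smarca4.

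The other genes on chromosome 6 that passed were Hdhd5, Kdm5a and Tmcc1. Hdhd5, named for a hydrolase domain, ran from 0.04 through 0.29 to 0.52 in Ala/Ala fat and from -0.18 through -0.05 to 0.24 in Pro/Pro fat, a difference of 0.30 (SE 0.06, adjusted p = 0.0438). Kdm5a, a demethylase of histone H3 lysine 4, ran from -0.75 through -0.47 to -0.20 and from -0.43 through 0.03 to 0.22, a difference of -0.49 (SE 0.10, adjusted p = 0.0289). Other probe sets of Kdm5a differed by -0.01 and -0.38, and the mean of all gave -0.30 (adjusted p = 0.301). Both genes overlapped between the genotypes. Tmcc1, a membrane protein of the endoplasmic reticulum, differed by -0.54 (SE 0.11, adjusted p = 0.0289) on its representative probe set, but its other 4 differed by 0.03, 0.04, 0.09 and -0.15, and their mean with it gave -0.10 (adjusted p = 0.622). Of 17 measured histone lysine demethylases Kdm5a was the single one that passed, and 13 lay below 0, with a median of -0.04. Kdm6b, which acts on lysine 27, differed by -0.34 (SE 0.14, adjusted p = 0.488).

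Along chromosome 6, 6 of 895 measured genes passed (0.67%), against 11 of 15748 elsewhere (0.0699%). In the order of measured genes all 6 followed Pparg on 1 side. Tmcc1 was the 9th measured gene after Pparg, Kdm5a the 41st, Hdhd5 the 44th, Bid the 49th, Slc6a13 the 54th and Apobec1 the 65th. Of the 70 measured genes after Pparg 25 had an unadjusted p under 0.05 (35.7%), against 8 of the 70 before it (11.4%) and 18 of the 216 genes further on (8.33%). The window of 70 was chosen after these values were seen. Genes of this stretch moved both ways: Mbd4, a DNA repair glycosylase, differed by 0.34 (SE 0.08, adjusted p = 0.101), and Wnt5b, a secreted signal, by -0.47 (SE 0.12, adjusted p = 0.17). The strain used to make the knock-in, and how much chromosome around the edited locus differs between the genotypes, are not given in the sources used here.

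**Figure D3:**
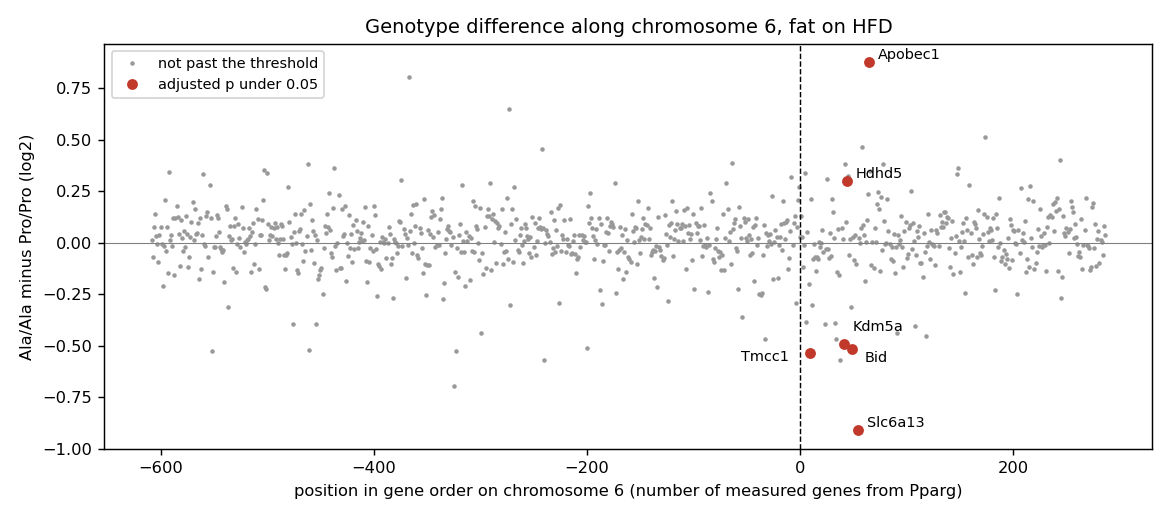
The genotype difference in fat on the high-fat diet (vertical axis, log2, Ala/Ala minus Pro/Pro) of 895 genes on chromosome 6, by position in gene order counted in measured genes from Pparg (horizontal axis, dashed line at Pparg). Red points are the 6 genes past the adjusted p of 0.05, which sit 9 to 65 measured genes after Pparg, 4 lower and 2 higher in Ala/Ala.

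Adipor2, a receptor for adiponectin and the 33rd measured gene after Pparg, shows how a call can depend on the probe set. Its representative probe set differed by -0.39 (SE 0.18, adjusted p = 0.539). The other differed by 0.43 (SE 0.06) and passed over all 25508 probe sets (adjusted p = 0.00103), with 0.41 on chow. Testing every probe set gave 24 that passed, in 23 genes, among them all 17. The genes this added were Adipor2, Gsk3b, a kinase of glycogen metabolism and Wnt signalling, Ankrd11, Ubxn2a, Atp2a3 and Entpd1. Gsk3b fell on 2 of its 6 probe sets, by 0.30 and 0.33, while the other 4, its representative among them, lay between -0.10 and 0.01.

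Outside chromosome 6 all 11 genes that passed were lower in Ala/Ala, by 0.38 to 0.67. N6amt1, a methyltransferase, had the tightest groups of these, from -0.54 through -0.41 to -0.28 in Ala/Ala fat and from -0.12 through 0.00 to 0.16 in Pro/Pro fat, a difference of -0.40 (SE 0.06, adjusted p = 0.00233). Chromatin and transcription genes among them were Smarca4, the motor subunit of the SWI/SNF remodelling complex, Chd7, another remodeller, and Nfic, a factor of the nuclear factor I family. Smarca4 ran from -0.73 through -0.52 to -0.26 and from -0.25 through -0.04 to 0.53, which did not overlap, and differed by -0.47 (SE 0.09, adjusted p = 0.0289). Chd7 differed by -0.42 (SE 0.08, adjusted p = 0.0289). Its other probe sets differed by -0.09 and -0.02, and the mean of all gave -0.17 (adjusted p = 0.384). Other probe sets of N6amt1 and Smarca4 differed by -0.11 each. With the mean of all probe sets N6amt1 stood at -0.25 and Smarca4 at -0.29, and both passed (adjusted p = 0.0453 each).

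Nfic ran from -0.86 through -0.51 to -0.29 in Ala/Ala fat and from -0.48 through -0.04 to 0.30 in Pro/Pro fat, a difference of -0.52 (SE 0.10, adjusted p = 0.0289). Its other probe sets differed by -0.12 to -0.40, all below 0. On representative probe sets all 4 family members had values below 0, with a median of -0.23, although Nfic was the single one that passed. Nfia differed by -0.25 (SE 0.10, adjusted p = 0.471), Nfib by -0.21 (SE 0.11, adjusted p = 0.579) and Nfix by -0.15 (SE 0.08, adjusted p = 0.573). Other probe sets of Nfia differed by -0.02, -0.08, 0.11 and -0.29 and that of Nfix by 0.03. Those of Nfib lay between -0.07 and -0.19. With the mean of all probe sets of each gene the family median was -0.12.

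Dtna encodes α-dystrobrevin, part of the dystrophin complex that ties the cell skeleton to the matrix. It ran from -1.14 through -0.68 to -0.32 in Ala/Ala fat and from -0.51 through 0.03 to 0.40 in Pro/Pro fat, a difference of -0.67 (SE 0.13, adjusted p = 0.0249). Its other 4 probe sets differed by 0.00, -0.11, -0.20 and -0.32, and the mean of all gave -0.26 (adjusted p = 0.301). Without arrays high in the other-organ lists described below the difference was -0.40 (adjusted p = 0.257). Of 13 measured genes of the complex it was the single one that passed, with a median of 0.00. Utrn, the dystrophin relative utrophin, differed by -0.45 (SE 0.16, adjusted p = 0.455), but its other probe set by 0.02.

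The remaining genes that passed have roles in translation, signalling and membrane traffic. Eif3c, a subunit of a translation initiation factor, fell by 0.45, Ptpn11, the phosphatase SHP2 of growth factor signalling, by 0.42, Rab12, a small GTPase of membrane traffic, by 0.38, and Cpne3, a calcium-dependent membrane-binding protein, by 0.45. Pdap1, a protein linked to platelet-derived growth factor, fell by 0.48 and Gdpgp1, a phosphorylase of GDP-glucose, by 0.38. Their adjusted p values lay between 0.0289 and 0.0484. Of the 17 genes 12 have more than 1 probe set, and of their 25 other probe sets 19 differed in the same direction, 9 of these at an unadjusted p under 0.05, and 0 passed over all probe sets. Other probe sets of Eif3c and Ptpn11 differed by -0.04 each and that of Pdap1 by 0.04. Averaging all probe sets of a gene gave 5 genes past the threshold, 4 of them among the 17. Of the 11 genes, 6 had their highest Pro/Pro value in Mouse131 and 5 their highest Ala/Ala value in Mouse77.

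Genes just short of the threshold are given as values. Ddo, which oxidises D-aspartate, differed by -0.40 (SE 0.09, adjusted p = 0.0791) and Zfp957, a zinc-finger gene, by 0.35 (SE 0.08, adjusted p = 0.0791). Atxn2, an RNA-binding protein, differed by -0.22 (SE 0.05, adjusted p = 0.101). Akap9, a kinase anchor of the centrosome, differed by -0.59 (SE 0.14, adjusted p = 0.133) and Pigg, an enzyme of membrane anchor synthesis, by 0.43 (SE 0.10, adjusted p = 0.133). Other probe sets differed less: by 0.02 and -0.25 for Ddo, 0.003 for Zfp957 and -0.04 for Atxn2. Those of Akap9 differed by -0.09, -0.01 and -0.24.

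The listed genes of the fat cell's own programme did not pass. Of 24 measured PPARG target genes of adipocytes 0 passed, where 0.102% of all genes did. At that share no call is to be looked for in a list of this size. Of these 24 genes 2 had an unadjusted p under 0.05, where 8.83% of all genes did. The median was 0.05 against 0.01 over all genes. Aqp7, the glycerol channel, differed by 0.30 (SE 0.13, adjusted p = 0.511) and Pdk4, which holds back glucose oxidation, by 0.34 (SE 0.16, adjusted p = 0.558). The other probe set of Aqp7 differed by 0.01. Leptin RNA (Lep) ran from -0.46 through 0.05 to 0.38 in Ala/Ala fat and from -0.63 through -0.07 to 0.61 in Pro/Pro fat. Its difference was 0.05 (SE 0.21, adjusted p = 0.957), and that of adiponectin (Adipoq) was -0.05 (SE 0.03, adjusted p = 0.627). A further list of 20 measured genes held Pparg itself, its partners and coregulators, the related receptors Ppara and Ppard, and Cebp genes. It was likewise too small to expect a call, and 0 passed and 3 had an unadjusted p under 0.05. These were Crebbp, an acetyltransferase (-0.45, SE 0.14, adjusted p = 0.36), Hdac3, a deacetylase of corepressor complexes (-0.11, SE 0.04, adjusted p = 0.414), and Nrip1, a corepressor (-0.41, SE 0.17, adjusted p = 0.502).

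Lipid and energy metabolism gave 0 genes past the threshold in 7 lists, where 0.102% of all genes passed. Of their members 6 had an unadjusted p under 0.05 (5.04%, against 8.83% of all genes). Fatty acid synthesis had 13 of 17 members below 0 and a median of -0.07, with Acacb, an acetyl-CoA carboxylase, at -0.67 (SE 0.41, adjusted p = 0.62). Cholesterol synthesis had 15 of 18 below 0 and a median of -0.11, with Fdft1, squalene synthase, at -0.17 (SE 0.08, adjusted p = 0.552). Among all genes 55.3% lay above 0. The mean of the cholesterol synthesis list had a median of -0.03 over the Ala/Ala mice and -0.09 over the Pro/Pro mice. This mean was lowest in Ala/Ala Mouse77 and Mouse117, at -0.60 and -0.46, and highest in Pro/Pro Mouse131, at 0.41. Triglyceride synthesis had a median of 0.00, and Lpin2, a phosphatidate phosphatase, stood at -0.25 (SE 0.11, adjusted p = 0.529). Lipolysis and lipid droplet genes had a median of 0.03, with Adcy3, an adenylate cyclase, at 0.22 (SE 0.06, adjusted p = 0.313). The other probe set of Adcy3 stood at 0.04. Oxidative phosphorylation and fatty acid oxidation had medians of -0.02 and 0.01. In insulin signalling Pdpk1, the kinase that activates Akt, stood at -0.28 (SE 0.08, adjusted p = 0.237) and Grb10, an inhibitor of the receptor, at 0.14 (SE 0.06, adjusted p = 0.488).

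Brown and beige adipocyte genes had a median of 0.09 over 16 members, and 0 passed. The mean of this list reached 0.60 in Ala/Ala Mouse77, against a median of -0.04 over the Ala/Ala mice and -0.08 over the Pro/Pro mice. Otop1, a proton channel found in brown fat, ran from -1.09 through 0.66 to 1.79 in Ala/Ala fat and from -2.04 through -0.31 to 1.45 in Pro/Pro fat. The groups overlapped over most of their range, and the difference was 0.89 (SE 0.35, adjusted p = 0.478). Adipocyte progenitor genes had a median of 0.00 and adipokines of -0.02.

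Macrophage, matrix and cell cycle genes lay mostly above 0 without passing, where 55.3% of all genes lay above 0. Of 20 macrophage genes 18 had positive differences, with a median of 0.15, and 0 passed. Cd163, a scavenger receptor of tissue macrophages, differed by 0.38 (SE 0.16, adjusted p = 0.521). The mean of the macrophage list reached 0.80 in Ala/Ala Mouse152, against a median of -0.09 over the Ala/Ala mice and -0.18 over the Pro/Pro mice. Of 24 matrix genes 22 were positive, with a median of 0.09, and Col6a3, a chain of collagen VI, differed by 0.19 (SE 0.08, adjusted p = 0.496). Mouse152 also had the highest matrix mean, 0.50, and the highest cell cycle mean, 0.83. The matrix mean had a median of 0.06 over the Ala/Ala mice and -0.03 over the Pro/Pro mice. For the cell cycle mean these medians were 0.02 and -0.04. All 13 cell cycle genes were positive, with a median of 0.16, and Bub1, a mitotic checkpoint kinase, differed by 0.31 (SE 0.12, adjusted p = 0.455) and Cdk1, the mitotic kinase, by 0.26 (SE 0.11, adjusted p = 0.5). In bulk tissue, more cells of a type and more RNA per cell cannot be told apart.

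Among natural killer and lymphocyte genes Gzma, a killer-cell protease, differed by 0.39 (SE 0.12, adjusted p = 0.36), while the list median was -0.06. The natural killer receptors Klra17 and Klrb1a, whose gene clusters lie on chromosome 6, differed by 0.51 (SE 0.15, adjusted p = 0.325) and 0.36 (SE 0.12, adjusted p = 0.382). Of 9 such receptors 0 passed, and the median was 0.07. Interferon response genes had a median of 0.00, endothelial genes 0.06, mesothelial genes -0.06, muscle genes 0.04, erythroid genes -0.12 and clock genes -0.02. In the unfolded protein response 17 of 20 members were positive, with a median of 0.04. Dnajc3 stood at -0.26 (SE 0.08, adjusted p = 0.333) and Pdia3, a disulphide isomerase, at 0.89 (SE 0.36, adjusted p = 0.484). Their other probe sets stood at 0.01 for Dnajc3 and 0.12 for Pdia3. Immediate early genes, which respond to handling of tissue, had a median of -0.04, with Egr1 at -0.45 (SE 0.20, adjusted p = 0.523). Over the 27 lists of pathways, cell types and processes, 0 of 409 measured genes passed and 27 had an unadjusted p under 0.05 (6.6%). Among all genes these shares were 0.102% and 8.83%.

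The widest differences between mice were in transcripts known from epithelia and liver, and they did not separate the genotypes. The 10 largest differences that did not pass were Calml3, Dcdc2a, Bex1, Plet1, Slc7a9, Cldn2, Iyd, Dynlrb2, Tmem212 and Prom1, at -1.90 to -1.25. Several of these are known from epithelia, such as Cldn2, a tight-junction claudin, and Prom1. Calml3 ran from -5.92 through -3.13 to 0.30 in Ala/Ala fat and from -5.74 through 0.22 to 0.76 in Pro/Pro fat. It fell into separate ranges: 4 of 8 Ala/Ala mice (Mouse77, Mouse99, Mouse117 and Mouse152) and 3 of 10 Pro/Pro mice (Mouse111, Mouse131 and Mouse143) lay at or under -3.55, and all others lay at or above -0.97. The same 4 and 3 counts held for Dcdc2a, Bex1, Plet1, Slc7a9, Cldn2 and Prom1 at a limit of -2. The difference of Calml3 was -1.90 with an SE of 1.30 (adjusted p = 0.654). With the mean of the epithelial genes Epcam and Cdh1 as a covariate 17 genes passed, 16 of them the same.

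Liver transcripts varied as widely. Alb, serum albumin, ran from -3.56 through -1.94 to 2.53 in Ala/Ala fat and from -4.97 through -2.07 to 2.58 in Pro/Pro fat, and its difference was 0.58 (SE 1.04, adjusted p = 0.896). Of 14 hepatocyte genes 0 passed, with a median of 0.43, and the list's mean ran from -2.75 to 2.22 in Ala/Ala and from -3.09 to 2.28 in Pro/Pro fat. The mean of 21 epididymis and testis genes ran from -1.68 to -0.34 and from -1.81 to 0.67, with a median difference of -0.28 and 0 members that passed. Ltf, lactoferrin, reached 5.46 in Ala/Ala Mouse80 and 3.20 in Ala/Ala Mouse128, while the other 16 mice lay between -0.34 and 0.44, and its difference was 1.16 (SE 0.44, adjusted p = 0.463). The first 3 principal components of the 18 arrays held 32.9%, 14.9% and 11% of the variance, and the first was led by Dcdc2a, Calml3 and Bex1 at one end and Fga, Ttr and Alb at the other. Leaving out arrays over 1 log2 above the median of the fat arrays in the epididymis and testis list (2 Ala/Ala and 2 Pro/Pro mice of the 18) left 3 genes past the threshold, each among the 17. The same for the hepatocyte list (4 and 4, with 4 chow arrays) gave 2 genes, of which Slc6a13, at -1.20 (adjusted p = 0.01305), was among the 17 and Ptprr, a phosphatase named after its values were seen, was not, at 0.83 (adjusted p = 0.01305). N6amt1 then stood at -0.42 (adjusted p = 0.213) and Bid at -0.56 (adjusted p = 0.336), so both calls were lost while the differences were not smaller. Leaving out arrays over either limit (5 and 5, with the 4 chow arrays) gave 25 genes, 15 of them higher in Ala/Ala, and Slc6a13, at -1.35 (adjusted p = 0.00647), was the single gene shared with the 17. The part of these transcripts in the 17 calls was not tested beyond these fits.

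**Figure D4:**
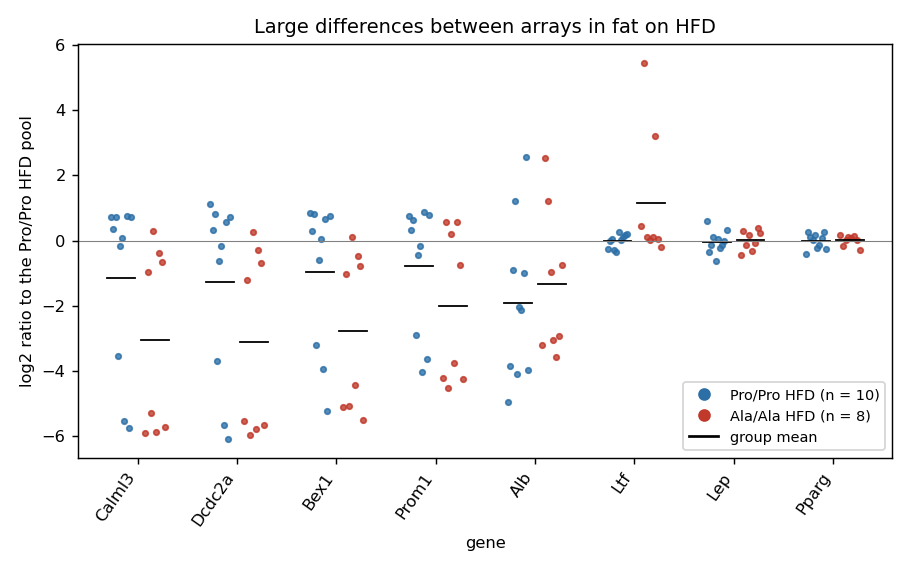
The log2 ratio to the Pro/Pro pool (vertical axis) of Calml3, Dcdc2a, Bex1, Prom1, Alb, Ltf, Lep and Pparg in each mouse on the high-fat diet, blue for 10 Pro/Pro and red for 8 Ala/Ala mice, with bars at the group means. The first 4 genes split each genotype into a low and a high set of mice, and Ltf is high in Ala/Ala animals Mouse80 and Mouse128.

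On chow, the question was whether the same genotype differences held without the high-fat diet. There 3 genes passed (0.018%): Slc6a13 at -0.77 (SE 0.13, adjusted p = 0.00502), Bid at -0.59 (SE 0.09, adjusted p = 0.00244) and Bcl2l13 at -0.40 (SE 0.07, adjusted p = 0.0213), so 2 of the 17 passed on both diets, in separate mice. Bcl2l13 was called on its representative probe set, and its other probe sets lay above 0 on the high-fat diet (0.23 and 0.21). Of the 6 genes on chromosome 6, 5 had the same sign on chow, among them Apobec1 at 0.50, Hdhd5 at 0.22 and Tmcc1 at -0.30, while Kdm5a stood at 0.08. Of the 11 genes elsewhere 3 had the same sign. Smarca4 stood at 0.20 on chow, and apart from Dtna at -0.39 the others lay between -0.07 and 0.10. The test of the difference between diets gave 0 genes past the threshold (limma, 731 at an unadjusted p under 0.05), with the smallest adjusted p, 0.19, for Smarca4, whose genotype difference was 0.67 lower on the high-fat diet than on chow. Of the 11 genes 10 had an unadjusted p under 0.05 in this test, but they were chosen on the high-fat difference, which is one side of it.

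Across tissues of mice on the high-fat diet, 54 genes differed between fat and liver in their genotype difference (0.324%), and 11 of them were among the 17, which were chosen on the fat difference. Slc6a13 stood at 0.08 in liver, and fat minus liver was -0.99 (adjusted p = 5.92e-07). Apobec1 stood at -0.61 in liver, with fat minus liver of 1.49 (adjusted p = 0.00356), and Bid at 0.53, with -1.05 (adjusted p = 0.0189). Dtna, Kdm5a, Pdap1, Smarca4, Cpne3, Eif3c and N6amt1 passed too, with differences in liver itself between -0.03 and 0.19, as did Hdhd5, with fat minus liver of 0.42. Within liver 0 genes passed (0%; limma, 1483 at an unadjusted p under 0.05).

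The muscle values do not fix the log base or the direction of the deposited ratios, so the base of fat was taken and the direction is given both ways. With the direction of fat, 25 genes differed between fat and muscle (0.15%), 10 of them among the 17. With every muscle ratio turned, 5 differed, 3 of them among the 17. Slc6a13 and Dtna passed either way. For Slc6a13 fat minus muscle was -0.81 (adjusted p = 0.000567), or -1.01 turned (adjusted p = 6.19e-07). For Dtna it was -0.69 (adjusted p = 0.00568), or -0.66 turned (adjusted p = 0.0116). Within muscle, where turning changes the sign but not the test, 2 genes passed (0.012%), and Hdhd5 was one of them, with a difference of 0.44 in the direction of fat (SE 0.07, adjusted p = 0.00323). Fat minus muscle of Hdhd5 was -0.15 (adjusted p = 0.6248), but 0.74 turned (adjusted p = 4.38e-08).

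**Figure D5:**
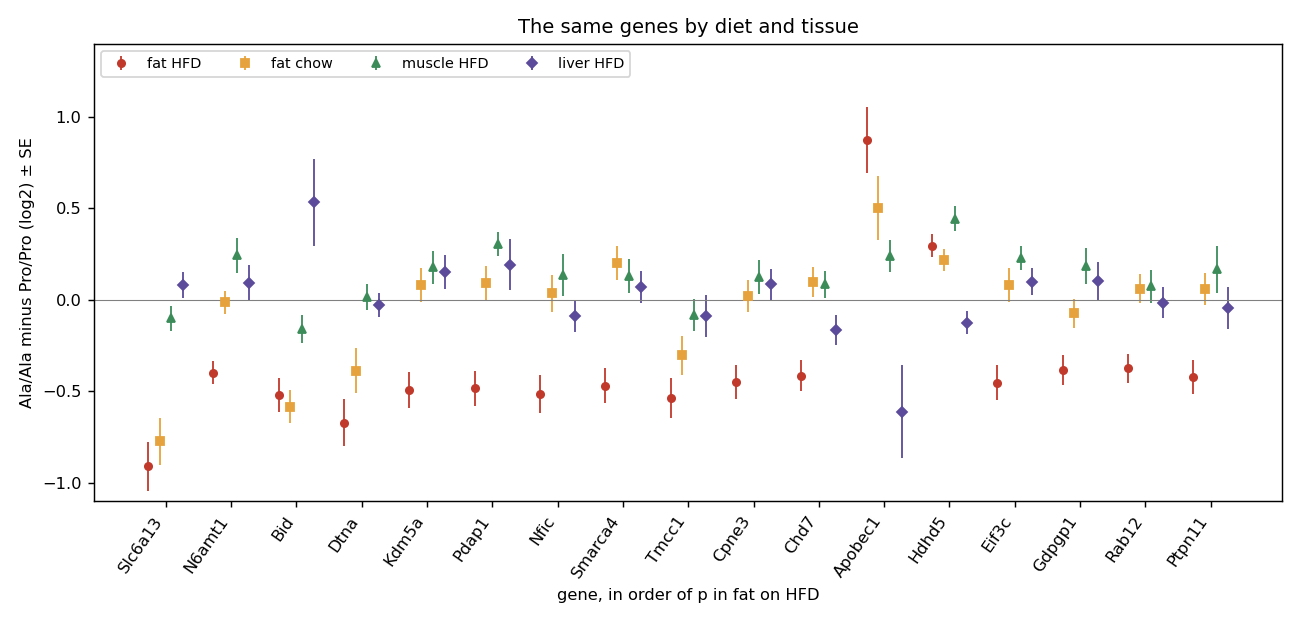
The genotype difference (vertical axis, log2, Ala/Ala minus Pro/Pro, with limma's SE as bars) of the 17 genes in fat on the high-fat diet, fat on chow, muscle on the high-fat diet and liver on the high-fat diet, muscle with the direction of fat assumed. Slc6a13 and Bid lie below 0 in fat on both diets, and N6amt1 and Smarca4 lie below 0 in fat on the high-fat diet but at -0.01 and 0.20 on chow.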

How the data were processed

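RNA was measured on Affymetrix arrays. Per the labels, the authors processed them with Rosetta Resolver and deposited log10 ratios to a virtual pool of the Pro/Pro group on the high-fat diet, while the sample text names a pool of 10 wild-type samples. In fat the deposited ratios, raised from log10 and averaged over the 10 Pro/Pro arrays, gave 1 within 0.001 on the log10 scale for all but 1 of 32640 probe sets, which settles base and direction. The deposited table has a floor of -2, reached by 22 values of the 18 arrays. The filter for expressed genes that the labels name needs intensities, which were not used here, and no statement on background can be made. The number of arrays limits the precision.

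Ratios were turned to log2. Of the probe sets 25508 have 1 symbol, updated through RefSeq's gene table of GRCm38.p6 (21388 current, 4066 through a synonym, 54 as given), 0 have several and 7132 have none. Each gene is represented by 1 probe set, the one varying most among arrays of the same tissue without regard to groups. Differences between groups add to this variation, so the choice may favour probe sets with larger group differences. A gene's difference is that of this probe set unless others are named, and other probe sets can differ less or in sign. limma 3.58.1 in R 4.3.3 fitted 4 group means over the 37 fat arrays, muscle and liver likewise, and all arrays for differences between tissues, without and with mouse number as a random block. The numbers mark the same animal; deviations from group means correlated with a median of 0.0266 between fat and muscle and -0.00502 between fat and liver. Alternatives were other normalizations, other summaries of probe sets, a variance filter, array weights, a robust prior, covariates, left-out arrays and the methods' t-test. The fit was run on simulated data with independent normal noise for each gene. Such noise lacks variation shared between genes, so this run could not test the fit under it. Replicates are separately numbered mice. Named genes are Pparg, those past the adjusted p of 0.05, the 10 next by p, the 10 largest differences that did not pass, and up to 3 members of each of 33 lists by p, of which the text names a part; Lep, Nfib, Alb, Ltf, Wnt5b, Ptprr and the genes from single probe sets were added after their values were seen. The comparison, its gene lists and tests were chosen with earlier results of these data known.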

Additional observations from a re-analysis of the deposited data

Results flagged for a closer look

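Single mice stood apart from the rest of their group for 7 of 150 gene and genotype groups checked, by a gap to the next mouse that is large against the range of the group. Chance alone gives about 1 in 20. Pro/Pro Mouse131 stood at 0.53 for Smarca4, with the next mouse at 0.04, and at 0.51 for Syncrip, with the next at 0.02. Ala/Ala Mouse152 stood at 0.74 for Col6a3 and at 0.66 for Entpd1. Ala/Ala Mouse128 stood at -0.98 for Ptpn11, Ala/Ala Mouse149 at -1.30 for Utrn and Pro/Pro Mouse94 at -0.14 for Adipoq.

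Genotype differences in fat differed from those in muscle by -0.81 for Slc6a13, -0.79 for Pdap1, -0.69 for Dtna, -0.68 for Eif3c, -0.67 for Kdm5a, -0.65 for Nfic, -0.64 for N6amt1, -0.60 for Smarca4, -0.57 for Cpne3 and -0.50 for Chd7. They also differed by -0.87 for Adipoq, -0.80 for Utrn and -0.54 for Pdpk1, none of which passed in fat itself. These values assume the direction of fat for the muscle ratios, which is not settled. With muscle turned they are -1.01 for Slc6a13 and -0.66 for Dtna, which still passed, and -0.18 for Pdap1, -0.23 for Eif3c, -0.31 for Kdm5a, -0.38 for Nfic, -0.16 for N6amt1, -0.34 for Smarca4, -0.33 for Cpne3, -0.33 for Chd7, 0.77 for Adipoq, -0.09 for Utrn and -0.03 for Pdpk1, which did not.

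Against liver the differences were 1.49 for Apobec1, -1.05 for Bid, -0.99 for Slc6a13, -0.68 for Pdap1, -0.65 for Kdm5a, -0.64 for Dtna, -0.55 for Eif3c, -0.54 for Smarca4, -0.53 for Cpne3, -0.49 for N6amt1 and 0.42 for Hdhd5. Genes that did not pass in fat gave 0.97 for Klra17, -0.83 for Akap9, 0.69 for Mbd4, -0.58 for Ddo, 0.55 for Zfp957, 0.48 for Atp2a3 and -0.48 for Bcl2l13. All passed an adjusted p of 0.05 in the fit over all tissues.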

How the results depend on the processing

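The 17 genes gave the same count after median centring (17) and with a robust prior (17). The count was 11 after quantile normalization, 5 with the mean of all probe sets of a gene, 2 in the 18 arrays alone, 2 by the methods' t-test after Benjamini-Hochberg adjustment, 3 without arrays high in the epididymis and testis list, 2 without arrays high in the hepatocyte list and 46 at the authors' false discovery rate of 0.20. Leaving out single mice gave between 3 and 25 genes. The cause of these moves was not tested; fewer arrays or probe sets entered some fits. All 17 differences kept their sign. Pparg, which did not pass, turned to -0.00310 with the mean of Epcam and Cdh1 as a covariate, an alternative added after seeing the data, and lay between -0.0159 and 0.0720 over single omissions, below 0 without Pro/Pro Mouse94 or Pro/Pro Mouse147. Tmcc1 was -0.13 (adjusted p = 0.658) without arrays high in either list. Of 660 list medians recomputed, 1 moved by over 1 SD, that of nuclear factor I. The test between diets gave 0 genes after quantile normalization and with probe-set means. With the sign of all muscle ratios turned, also added after seeing the data, fat minus muscle gave 5 genes, 2 of them among the 25. With mouse number as a block (correlation -0.00642) fat minus liver gave 53 genes and fat minus muscle 25, and the block changed no call among the 17.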
